A study of Capra hircus with 3 samples.

Results

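CCN3/SHOX2 stroma is a set of mesenchymal cells in 2 droplet single-cell RNA libraries of fetal goat (Capra hircus) testis, taken at 2 fetal stages named by embryonic day (E105 and E85). A cell was counted as a member when it held at least 2 unique molecular identifiers (UMIs, the count of captured RNA molecules) of CCN3, SHOX2, CCL11 and LUM together, more than of TAC1 and NTRK2 together. It also had to be low in AMH (under 0.05% of its UMIs, or under 5 UMIs) and to hold under 2 UMIs of the endothelial genes CDH5, ROBO4, SOX18, TIE1 and ESAM. Only barcodes with at least 1000 UMIs and at most 20% mitochondrial UMIs entered. The rule found 5279 members among 13500 such barcodes (20825 when the library labelled E125, left out here, is counted too), 3041 of 7124 at E105 (42.7%, exact binomial 95% interval 41.5 to 43.8%) and 2238 of 6376 at E85 (35.1%, 33.9 to 36.3%). These shares depend on which cells were released and captured as well as on the tissue.

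The tissue was labelled as male testis, with the gonads dissociated by collagenase, hyaluronidase, trypsin and DNase. Neither the breed, the number of fetuses nor any pooling is given in the sources used here. Each stage is 1 library, so no difference between stages has a replicate check and no p-value can be given. All intervals below are 95% intervals for counting error alone. The labels state no question for this stroma, and the comparison the design allows is that of E105 with E85.

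E105 held 8520 barcodes and 40741902 UMIs, and E85 held 7478 barcodes and 45339231 UMIs. Members had a median of 2303 UMIs and 1026 genes at E105 and 2137 UMIs and 941 genes at E85, with 3.102% and 2.95% of UMIs from mitochondrial genes. The libraries shared 14 barcodes, 4 of them among members. A library labelled E125 stood apart from its label. AMH, the Sertoli cell hormone that removes the female duct, had 1401, 3817 and 31.6 counts per 1000000 UMIs (CPM) over all kept cells of E85, E105 and the library labelled E125, and SOX9, its testis-determining activator, had 222, 180 and 25.0 CPM. FST, a gene of the fetal ovary in the mouse, had 4.30, 2.30 and 240 CPM in the same order. That library entered no comparison.

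Between the cords of the fetal testis lies a mesenchyme that holds vessels, macrophages and steroid-making Leydig cells. In the mouse its PDGFRA- and NR2F2-bearing cells respond to Desert hedgehog from Sertoli cells and include progenitors of Leydig cells. Such stroma secretes collagens, proteoglycans and growth factor binding proteins. CCN3 is a secreted matricellular protein, SHOX2 a homeobox transcription factor, CCL11 (eotaxin) a chemokine that draws eosinophils, LUM the collagen-binding proteoglycan lumican, and DLK1 an imprinted transmembrane protein of the Notch ligand family. Gene roles given here come from mouse and human work.

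Some members carried transcripts of other cell types. At least 2 UMIs of the germ cell genes DDX4 and DAZL were present in 39 members at E105 (1.28%) and 110 at E85 (4.92%). These were deep barcodes, with medians of 16937 UMIs at E105 and 18416 at E85, so they held 8.28% of all member UMIs at E105 and 30.8% at E85. SHOX2 was found in 97.4% of them at E105 and 98.2% at E85, at 147 and 134 CPM, with LUM at 40.0 and 20.7 CPM. Over all germ-marked barcodes, members or not, SHOX2 was found in 67.7% at E105 and 69.7% at E85. Immune genes (PTPRC, CD3E, CSF1R, CD68) marked 34 and 37 members, and the Leydig genes STAR and INSL3 marked 21 and 23. The third Leydig gene intended, CYP17A1, has no feature of that name, and the feature named CYP17 was not used for the split. Setting aside members with any of these marks (92 at E105 and 158 at E85) left 2949 and 2080 cells, 41.4% and 32.6% of kept barcodes. Gene values below are for these 5029 cells unless all members are named, with values over all members beside some of them.

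The remaining cells were stroma by their other genes. The fibroblast proteoglycan DCN, which the rule did not use, had 4882 CPM at E105 and 4362 CPM at E85, and was found in 99.7% and 99.8% of cells. TCF21, a transcription factor of gonadal mesenchyme, had 1175 and 849 CPM, NR2F2 had 626 and 716 CPM, and PDGFRA had 212 and 120 CPM. DLK1 was found in 95.8% and 95.9% of cells, at 3239 and 2742 CPM. Among immune cells that did not meet the member rule it was found in 4.71% and 2.97%. The median depth of those immune cells was 5055 UMIs at E105 and 4857 at E85. Markers of other types were low, though the selection itself capped some of them. The rule capped AMH and the endothelial genes CDH5, ROBO4, SOX18, TIE1 and ESAM. Setting marked cells aside capped DDX4, DAZL, PTPRC, CD3E, CSF1R, CD68, STAR and INSL3. The 8 Sertoli genes with a feature summed to 137 CPM at E105 and 126 CPM at E85, against 10488 and 4570 CPM in AMH-high Sertoli cells, and AMH itself had 81.0 and 52.6 CPM. Of 10 germ genes NANOS2 and DND1 were at 0 in both libraries, and the list summed to 15.7 and 41.1 CPM (181 and 558 CPM over all members). Endothelial genes summed to 71.9 and 50.3 CPM, mostly EMCN and KDR, with CLDN5 at 0. Mural genes summed to 252 and 317 CPM, macrophage genes to 54.6 and 52.8 CPM, lymphoid genes to 4.20 and 5.13 CPM, Leydig genes to 17.1 and 13.9 CPM, and epithelial genes to 9.75 and 16.9 CPM. Schwann genes summed to 7.31 and 5.35 CPM, and the erythroid genes with a feature were all at 0. Smooth muscle genes were a partial exception, at 1506 and 909 CPM, and are described below.

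The 4 rule genes chose the cells, so their levels are a description. LUM had 1152 CPM (1128 to 1177) at E105 and 1417 CPM (1383 to 1451) at E85, and it was found in 84.1% and 89.4% of cells. SHOX2 had 742 CPM (723 to 762) at E105 and 711 CPM (687 to 736) at E85, in 78.3% and 75.1% of cells. CCN3 had 332 CPM (319 to 346) at E105 and 566 CPM (544 to 588) at E85, in 29.8% and 42.6% of cells. CCL11 ran the other way, at 348 CPM (335 to 362) at E105 and 135 CPM (124 to 146) at E85, in 30.3% and 16.2% of cells. In Sertoli cells, which are deeper (medians of 9892 and 10417 UMIs against 2278 and 2071 in the stroma), CCN3 was found in 1.70% of cells in both libraries, CCL11 in 1.89% and 0.774%, SHOX2 in 5.20% and 5.07%, and LUM in 6.58% and 5.42%. Thinned to 1000 UMIs per cell, the stroma still showed CCN3 in 19.5% of cells at E105 and 30.7% at E85 and CCL11 in 19.4% and 9.38%, while SHOX2 stood at 50.8% and 50.5%.

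**Figure D1:**
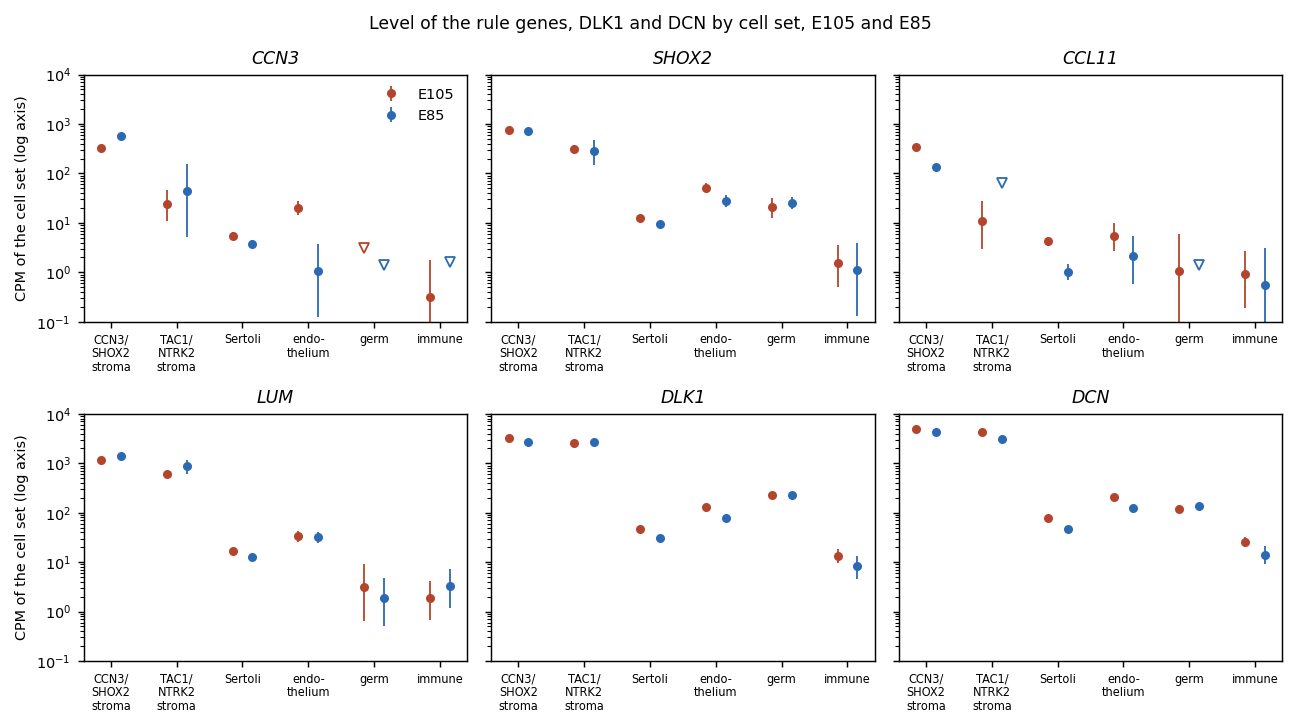
Level of the 4 rule genes, DLK1 and DCN in 6 cell sets, as CPM on a log axis, with E105 in red left of E85 in blue. Points are 1 library each, bars are exact Poisson 95% intervals, and open triangles are the limit of 3 counts where no UMI was found. CCN3/SHOX2 stroma stands highest in each panel, with TAC1/NTRK2 stroma close to it for DLK1 and DCN and far below it for CCN3 and CCL11. Germ- or immune-marked barcodes that met the member rule are in none of the sets, which lowers the rule genes in the germ and immune sets by construction.

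Most cells had UMIs of more than 1 rule gene. Exactly 1 of the 4 genes was found in 17.3% of cells at E105 and 16.3% at E85, 2 genes in 49.5% and 49.6%, 3 genes in 26.4% and 28.5%, and all 4 in 6.68% and 5.58%. The median member had 5 UMIs of the 4 genes in both libraries. Over all members, those just inside the threshold, with a sum of 2, numbered 366 at E105 and 254 at E85, and had DCN at 3461 and 1350 CPM and DLK1 at 2132 and 963 CPM. Barcodes just outside it, with a sum of 1 and in no other class, numbered 265 and 169, and had DCN at 4487 and 3229 CPM and DLK1 at 2750 and 1782 CPM. Both sides of the threshold thus carried stromal transcripts, and the inside at E85 includes germ-marked barcodes. Barcodes with a sum of 0 and in no other class had DCN at 694 and 296 CPM.

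Between the stages, calls without marker cells were mostly of genes higher at E105, at the filter of 20 UMIs used here. With no filter beyond 1 UMI the balance turned, at 1051 higher and 1139 lower. Of 8522 genes with a symbol and at least 20 UMIs over both libraries, 483 were at least 2-fold higher at E105 (5.67%) and 145 at least 2-fold lower (1.7%), and the median of all genes was 0.06 on the log2 scale, with 4927 genes above 0. Over all members the counts were 498 of 9837 higher (5.06%) and 1001 lower (10.2%). Over all members the lower genes named by rank included germ cell genes. The germ cell helicase DDX4 had 38.1 CPM at E105 and 136 CPM at E85 over all members, against 1.90 and 9.20 CPM without marker cells. The meiotic cohesin SMC1B had 25.2 and 120 CPM over all members and 0.948 and 6.42 CPM without marker cells. STK31, of germ cells, had 93.4 and 358 CPM over all members and 3.79 and 20.3 CPM without them. TOMM34, an import factor of mitochondria, had 22.6 and 82.3 CPM over all members and 5.28 and 4.71 CPM without them. By the same rule Sertoli cells had 5.47% of 9694 genes higher and 2.08% lower at E105, and endothelium 6.28% of 6676 genes higher and 1.18% lower. Several of the genes below had like ratios in those cells, and their ratios are given beside each. What cell types share between libraries, whether stage, animal or library preparation, cannot be told apart.

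PENK, NEFL and SPON2 had the largest ratios among the genes named by rank. PENK, the precursor of the enkephalin opioid peptides, had 167 CPM at E105 and 13.7 CPM at E85, a ratio of 12.2 (9.51 to 15.98). Sertoli cells had 6.59 and 1.07 CPM of it. NEFL, the light neurofilament chain, had 56.3 CPM at E105 and 4.49 CPM at E85, a ratio of 12.5 (8.10 to 20.5), with 0.909 and 0 CPM in Sertoli cells. Both were carried by few cells, PENK by 9.97% at E105 and 1.30% at E85, NEFL by 9.60% and 0.817%. SPON2, a secreted matrix protein, was more widely spread. It had 343 CPM in 48.2% of cells at E105 and 62.7 CPM in 12.2% at E85, a ratio of 5.48 (4.85 to 6.20). Sertoli cells had 14.0 and 2.66 CPM of it and endothelium 11.6 and 1.05 CPM. SPON2 was thus higher at E105 in those classes too, as was PENK in Sertoli cells. In immune cells PENK, NEFL and SPON2 were each found in under 1% of cells in both libraries (at most 0.698%). Their levels in TAC1/NTRK2 stroma, the nearest set by rule, are not given here. None of them is thus shown to be particular to CCN3/SHOX2 stroma, and PENK was higher in members with TAC1 UMIs, as described below.

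The next genes had ratios above 3 in Sertoli cells and endothelium too. ITM2B, a membrane protein, had 695 CPM at E105 and 129 CPM at E85 (5.38, 4.94 to 5.86), with ratios of 5.36 in Sertoli cells and 4.88 in endothelium. NENF, a secreted neurotrophic factor, had 453 and 122 CPM (3.71), with 4.09 and 3.18 in those classes. BCL7C, a subunit of the SWI/SNF chromatin remodeller, had 170 and 41.1 CPM (4.14), with 3.52 and 3.81. ICE1, of the little elongation complex, had 74.1 and 16.7 CPM (4.44), with 5.11 and 4.28. MICU2, a regulator of mitochondrial calcium uptake, had 56.3 and 13.9 CPM (4.05), with 4.85 and 4.73. JUN, the immediate early transcription factor, had 150 and 38.3 CPM (3.91), with 3.34 and 3.31. ID1, an inhibitor of basic helix-loop-helix factors and a BMP target, had 96.7 and 22.7 CPM (4.27), with 3.60 and 3.56.

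Ratios nearer 1 in the other classes stood beside ARHGAP20 and NOSTRIN. ARHGAP20, a GTPase-activating protein, had 136 CPM at E105 and 36.4 CPM at E85 (3.74, 3.18 to 4.43), with 2.01 in Sertoli cells and 1.11 in endothelium. NOSTRIN, a trafficking adaptor of nitric oxide synthase, had 52.3 and 12.6 CPM (4.14, 3.14 to 5.55), with 1.52 and 1.08. Whether the ratios differ between classes could not be tested with 1 library per stage.

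**Figure D2:**
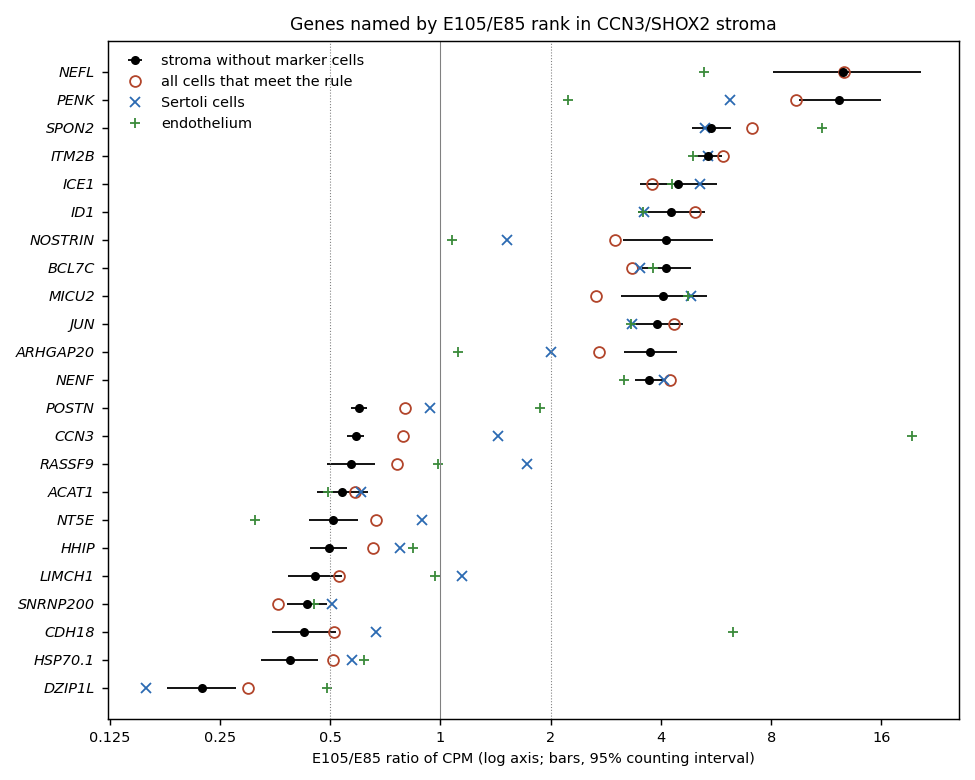
Ratio of CPM at E105 over E85 for higher and lower genes named by rank, on a log axis. Black points with 95% counting intervals are stroma without marker cells, red circles all members, blue crosses Sertoli cells and green plus signs endothelium (dotted lines at 2 and 0.5). ITM2B, NENF, ICE1 and MICU2 have symbols of all 4 sets on the same side of 2, while HHIP lies lower in stroma than in Sertoli cells and endothelium.

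On the lower side, DZIP1L, a protein of the ciliary base, had 15.8 CPM at E105 and 70.8 CPM at E85 (0.224, 0.180 to 0.277), and its ratio was 0.157 in Sertoli cells. HHIP, which binds and traps hedgehog ligands, had 70.3 CPM in 14.5% of cells at E105 and 142 CPM in 24.6% at E85 (0.495, 0.440 to 0.556; 0.655 over all members). Sertoli cells had 1.18 and 1.53 CPM of HHIP. CDH18, a cadherin, had 22.1 and 52.0 CPM (0.425), and LIMCH1, an activator of non-muscle myosin, had 32.1 and 70.6 CPM (0.455). The spliceosome helicase SNRNP200 had 59.5 and 138 CPM (0.432), with 0.506 in Sertoli cells and 0.451 in endothelium. HSP70.1, a stress-inducible chaperone, had 27.2 and 70.2 CPM (0.388). Over all members CDH18 (0.512), LIMCH1 (0.529) and HSP70.1 (0.509) fell just short of 2-fold.

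The other genes named by rank were lower by less than 2-fold. POSTN, the matricellular protein periostin, had 392 CPM at E105 and 655 CPM at E85 (0.598, 0.568 to 0.630). CCN3 itself had a ratio of 0.587 (0.555 to 0.620). NT5E, the ectonucleotidase CD73 that makes adenosine, had 41.6 and 81.5 CPM (0.510). RASSF9 had 44.6 and 78.1 CPM (0.571), and ACAT1, a mitochondrial thiolase, had 38.3 and 71.0 CPM (0.540).

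Of 17 measured genes for fibrillar collagens and their processing 12 had ratios above 1 (4927 of 8522 over all genes), 5 were at least 2-fold higher (5.67% of all genes) and none lower (1.7%). Their median log2 ratio was 0.53 (0.06 over all genes). COL1A1, a chain of type I collagen, had 929 CPM at E105 and 431 CPM at E85, a ratio of 2.15 (2.05 to 2.27). Its partner COL1A2 had 1188 and 753 CPM (1.58 here and 2.11 over all members). PCOLCE, which speeds removal of the procollagen C-propeptide, had 239 and 97.1 CPM (2.46, 2.22 to 2.73). LOX, the enzyme that crosslinks collagen, had 16.8 and 4.28 CPM (3.93), LOXL1 had a ratio of 2.76, and ADAMTS2, the N-propeptidase, had 3.79 and 1.28 CPM (2.96). COL11A1 had 146 and 202 CPM (0.724), and the prolyl hydroxylase subunit P4HA2 had 159 and 227 CPM (0.700). In Sertoli cells, where COL1A1 had 15.3 and 6.32 CPM, the same list had a median of 0.94, above that of all genes (0.08).

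Other matrix lists had smaller medians, and the share of all genes at least 2-fold higher was 5.67%. Of 8 small leucine-rich proteoglycans 1 was at least 2-fold higher, ECM2 at 66.8 and 19.9 CPM (3.36, 2.68 to 4.24), and the median was 0.36. OGN had 592 and 389 CPM (1.52), DCN a ratio of 1.12 and LUM 0.813. Among 19 other matrix glycoproteins 3 were at least 2-fold higher and the median was 0.36. Beside SPON2 these were FBN2, a fibrillin of elastic microfibrils, at 40.4 and 13.5 CPM (3.00), and fibronectin FN1 at 11.2 and 5.13 CPM (2.19). The 12 basement membrane genes held none past 2-fold and had a median of 0.07, with LAMB1 at 352 and 345 CPM. TIMP2, an inhibitor of matrix proteases, had 473 and 214 CPM (2.22, 2.07 to 2.38), while TIMP3 had 1126 and 1108 CPM and TIMP1 597 and 549 CPM. In Sertoli cells the TIMP2 ratio was 4.44. CCN1, the CCN family member induced by growth factors and stretch, had 99.7 and 41.1 CPM (2.43, 2.07 to 2.86), with 0.796 in Sertoli cells.

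**Figure D3:**
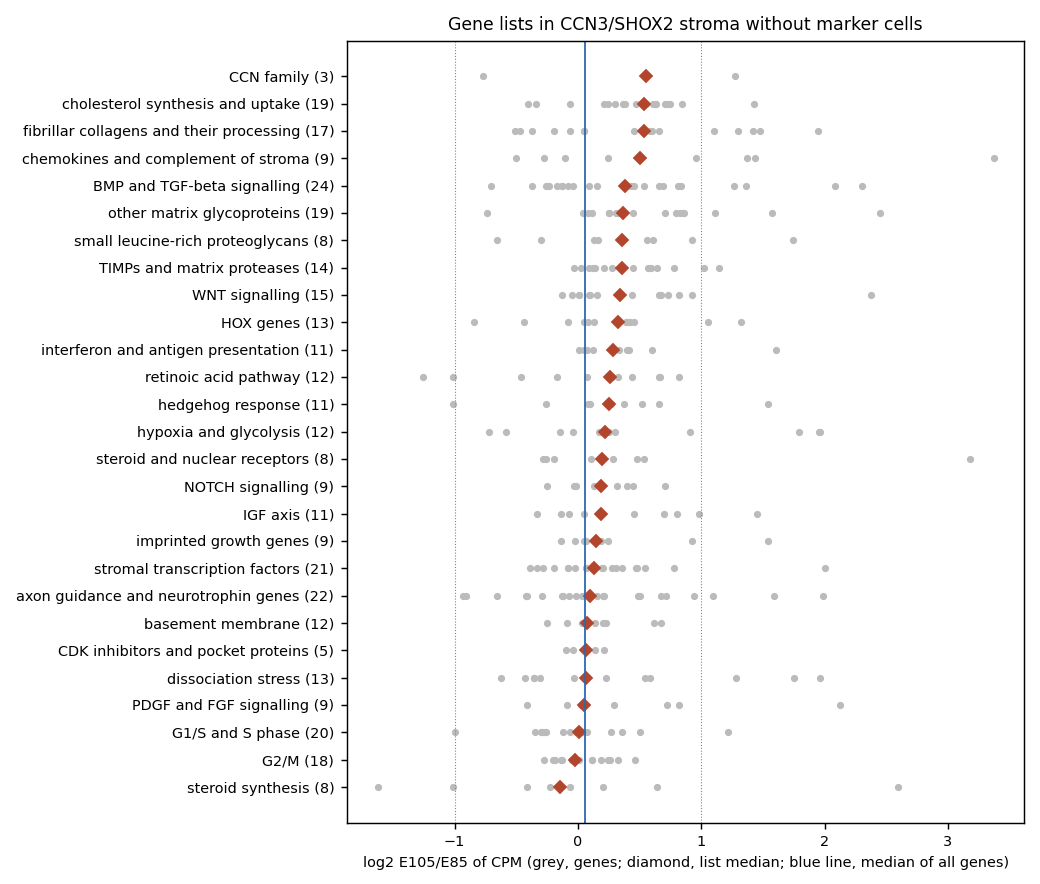
Log2 ratio of CPM at E105 over E85 in stroma without marker cells for 27 gene lists, with the number of measured genes in brackets. Grey points are genes, red diamonds list medians, the blue line the median of all genes and the dotted lines 2-fold. The fibrillar collagen, CCN family, cholesterol, and chemokine and complement lists have medians above 0.5, and both cell cycle lists lie near 0. The CCN family median is of 3 genes, CCN3 of the rule among them. The summed level of that list was 442 CPM at E105 and 614 CPM at E85.

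Among chemokine and complement genes, 3 of 9 measured were at least 2-fold higher (5.67% of all genes), with a median of 0.50. Over all members 3 of 10 were higher and 1 lower (5.06% and 10.2% of all genes). CCL11 was among the higher genes (2.59, 2.37 to 2.83) and had chosen the cells. C7, a terminal complement component, had 200 CPM at E105 and 103 CPM at E85 (1.95). C3, the central complement component, had 13.5 and 4.92 CPM (2.75), but 0.923 over all members. CCL2 rested on 1 UMI at E85, with 3.25 and 0.214 CPM. CXCL12, the ligand of CXCR4, had 21.9 and 23.5 CPM.

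In the hedgehog pathway 9 of 11 measured genes had ratios above 1 (4927 of 8522 over all genes), with a median of 0.25. At least 2-fold differences were 1 higher and 1 lower, against 5.67% and 1.7% of all genes. Over all members 1 was higher and none lower, against 5.06% and 10.2%. The transducer SMO had 14.0 CPM at E105 and 4.71 CPM at E85 (2.96, 1.86 to 4.94). PTCH1, receptor and target at once, had 81.4 and 56.9 CPM (1.43, 1.24 to 1.66). The target GLI1 had 17.3 and 14.3 CPM (1.21, 0.893 to 1.65), and HHIP, also a target, was the lower one.

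Growth factor receptors differed within their lists. Among 9 PDGF and FGF genes FGFR2 had 49.8 CPM at E105 and 11.3 CPM at E85 (4.40, 3.29 to 5.98; 1.73 in Sertoli cells). FGFR1 had 93.2 and 56.5 CPM (1.65). PDGFRA had a ratio of 1.77 (1.60 to 1.95) and PDGFRB, at 71.8 and 95.8 CPM, of 0.749 (0.659 to 0.851). In the IGF axis, with 11 measured genes, the binding protein IGFBP2 had 52.3 and 19.04 CPM (2.75, 2.18 to 3.50), yet 0.966 over all members. IGFBP6 had 938 and 538 CPM (1.74), IGFBP3 45.6 and 23.1 CPM (1.98), IGF2 128 and 141 CPM and IGF1 23.0 and 14.1 CPM.

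Of 24 BMP and TGF-beta genes 4 were at least 2-fold higher (5.67% of all genes) and none lower (1.7%), with a median of 0.38. Over all members 6 of 30 were higher and 7 lower, against 5.06% and 10.2% of all genes. ID4 had 26.8 CPM at E105 and 5.35 CPM at E85 (5.02, 3.30 to 7.94; 1.93 over all members). The receptor BMPR1A had 20.04 and 7.70 CPM (2.60), and LTBP1, which stores latent TGF-beta in matrix, had 101 and 42.1 CPM (2.41). ID1 is given above, and ID3 had 381 and 393 CPM. INHBA, the activin A subunit, had 542 and 509 CPM (1.06), and the pseudoreceptor BAMBI 331 and 429 CPM (0.770). Of 15 WNT genes only WNT2B passed 2-fold (5.67% of all genes were higher), on 2 UMIs at E85. Its ratio was 1.28 over all members, where 2 of 20 genes were higher and 2 lower (5.06% and 10.2% of all genes). The antagonist DKK1 had 97.2 and 55.0 CPM (1.77) and WNT5A 245 and 228 CPM. None of 9 NOTCH genes passed 2-fold, and NOTCH3 had 78.0 and 79.8 CPM. In the retinoic acid list 2 of 12 were at least 2-fold lower, CRABP1 at 2.03 and 4.92 CPM and RARG at 2.84 and 5.77 CPM.

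Of 21 measured transcription factors of gonadal mesenchyme only OSR1 passed 2-fold, at 3.79 CPM at E105 and 0.855 CPM at E85. That share is near the 5.67% of all genes called higher. Over all members 1 of 25 was higher and 3 lower (5.06% and 10.2% of all genes). TCF21 had a ratio of 1.38 (1.33 to 1.44), LHX9, at 116 and 79.1 CPM, of 1.46, NR2F2 of 0.875 and SHOX2 of 1.04. NR5A1, the activator of steroid genes, had 3.25 and 2.78 CPM. Of 13 HOX genes HOXB2, at 16.3 and 6.42 CPM (2.53), and HOXA7, at 6.37 and 2.99 CPM (2.13), passed 2-fold (5.67% of all genes). Over all members 2 of 15 were higher and 2 lower (5.06% and 10.2% of all genes). Among imprinted growth genes MEST had 7.72 and 2.57 CPM (3.01), DLK1 a ratio of 1.18 (1.16 to 1.21) and the cell cycle inhibitor CDKN1C 153 and 146 CPM. Steroid synthesis genes were low, with 1 of 8 measured at least 2-fold higher and 2 lower, against 5.67% and 1.7% of all genes. Over all members 2 of 10 were higher and 1 lower (5.06% and 10.2% of all genes). The side-chain cleavage enzyme CYP11A1 had 7.04 and 1.07 CPM, STAR, the cholesterol importer, had 5.96 and 7.91 CPM, and the receptor LHCGR had 1.35 and 4.28 CPM (0.317, and 0.853 over all members). The feature named CYP17 had 6.23 and 3.64 CPM, with at least 2 UMIs in 3 cells at E105 and 2 at E85. Of 8 steroid and nuclear receptors only ESR1, the oestrogen receptor, passed 2-fold, on 1 UMI at E85, while the glucocorticoid receptor NR3C1 had 178 and 165 CPM. Of 22 axon guidance and neurotrophin genes 3 were at least 2-fold higher (5.67% of all genes), EPHB2, NTF3 and NTRK2, the last of which the rule used. Over all members 4 of 25 were higher and 5 lower (5.06% and 10.2% of all genes). EPHA3 had a ratio of 1.64, and NCAM1, a cell adhesion molecule, had 344 and 421 CPM (0.818).

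Of 8 measured genes of smooth muscle and peritubular cells 2 were at least 2-fold higher at E105 (5.67% of all genes) and none lower (1.7%), with a median of 0.51. ACTA2, smooth muscle actin, had 682 CPM (664 to 702) at E105 and 311 CPM (295 to 327) at E85, and was found in 35.1% and 19.2% of cells after thinning to 1000 UMIs. In TAC1/NTRK2 stroma it had 478 and 261 CPM and in endothelium 311 and 151 CPM. MYH11, the heavy chain of smooth muscle myosin, had 15.6 and 4.06 CPM (3.83, and 1.55 over all members), DES had 249 and 172 CPM and MYLK 292 and 209 CPM. PLN was at 0 in both libraries. Whether these counts came from peritubular cells among the members was not tested.

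Genes of cell division were near level between the stages. Of 18 measured G2/M genes none passed 2-fold, and the median was −0.03. TOP2A had 234 CPM at E105 and 239 CPM at E85, CENPF 295 and 339 CPM (0.869) and TPX2 129 and 156 CPM (0.828). At least 2 UMIs of G2/M genes were held by 8.21% of cells at E105 and 9.28% at E85, and by 5.76% and 6.39% after thinning to 1000 UMIs. Of 20 genes of G1/S and S phase SLBP, the histone mRNA binding protein, was higher (2.34, and 1.84 over all members), and RRM2, of ribonucleotide reductase, lower (0.499, 0.376 to 0.661, and 0.671 over all members).

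Of 19 measured genes of cholesterol synthesis and uptake 16 had ratios above 1 (4927 of 8522 over all genes), and the median was 0.54 (0.46 in Sertoli cells). HMGCS1 had 138 CPM at E105 and 83.2 CPM at E85 (1.66, 1.48 to 1.87), SQLE 97.2 and 57.7 CPM (1.68) and IDI1 322 and 209 CPM (1.54). Only INSIG1 passed 2-fold, at 7.72 and 2.78 CPM. Of 12 measured hypoxia and glycolysis genes PFKP, ADM and PDK1 passed 2-fold (5.67% of all genes), at under 11 CPM. Over all members these 3 did not (0.889, 1.47 and 1.63). VEGFA had 83.4 and 44.3 CPM (1.88, 1.61 to 2.22, and 1.05 in Sertoli cells). All 11 measured interferon and antigen presentation genes had ratios above 1, as did 4927 of 8522 genes, and only TAP1 passed 2-fold (5.67% of all genes). Of 13 genes that respond to tissue dissociation 3 were higher (5.67% of all genes), JUN, BTG1 and DUSP1 (2.46, and 1.59 over all members). The median of the list was 0.06, against 0.06 over all genes. Its summed level was 3273 CPM at E105 and 3949 CPM at E85. FOS had 57.2 and 48.8 CPM (1.17) and HSP90AA1 2387 and 3054 CPM (0.782).

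The nearest set by rule, TAC1/NTRK2 stroma, had more UMIs of TAC1 (the substance P precursor) and NTRK2 (a neurotrophin receptor) than of the 4 rule genes. It held 160 cells at E105 and 22 at E85. The same counts chose both sets, so what follows is a description. The filtering was not equal. TAC1/NTRK2 stroma excluded barcodes with at least 2 UMIs of DDX4 and DAZL, while all members kept them. Immune- and Leydig-marked barcodes were set aside from the members but not from TAC1/NTRK2 stroma. At E105, CCN3 had 332 CPM in CCN3/SHOX2 stroma and 24.3 CPM in TAC1/NTRK2 stroma, CCL11 had 348 and 10.8 CPM, SHOX2 had 742 and 308 CPM and LUM 1152 and 605 CPM. DLK1 had 3239 and 2524 CPM and DCN 4882 and 4356 CPM, so the sets shared the general stroma genes. Of 6911 genes 61 were at least 2-fold higher in CCN3/SHOX2 stroma in both libraries (0.883%) and 197 at least 2-fold lower (2.85%). Over all members, germ-marked barcodes included, the counts were 215 of 8114 (2.65%) and 343 (4.23%). At E105 alone 693 of 7928 genes were higher (8.74%) and 688 lower (8.68%), or, over all members, 1172 of 8644 (13.6%) and 684 (7.91%).

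The split between higher and lower depended on the scaling. Trimmed-mean scaling gave 76 higher and 137 lower, and median-of-ratios scaling 93 and 99. Over all members median-of-ratios scaling gave 284 and 259, trimmed-mean scaling 263 and 294, and means over cells 57 and 504.

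CENPF, of the kinetochore, had 295 CPM in CCN3/SHOX2 stroma and 21.6 CPM in TAC1/NTRK2 stroma at E105, a ratio of 13.7 (6.92 to 31.7). At E85 it had 339 CPM and 0 UMIs, at least 5.21-fold higher with the limit set at 3 counts in the library. TOP2A, which untangles DNA, had 234 and 45.9 CPM at E105 (5.09, 3.17 to 8.76), and 239 CPM against 0 UMIs at E85 (at least 3.67-fold higher). Both E85 limits treat UMIs as independent and rest on 22 TAC1/NTRK2 cells. At least 2 G2/M UMIs were held by only 9.28% of CCN3/SHOX2 stroma cells at E85. The limits do not cover which cells happened to be sampled among the 22. CKAP2 (6.56 at E105), the linker histone H1-5 (6.06) and the spindle factor TPX2 (2.67) went the same way. PLK2, a kinase of the early cell cycle, had 194 and 89.1 CPM at E105 (2.17, 1.54 to 3.17). TUBA1B, an alpha-tubulin, had 739 and 435 CPM at E105 (1.70), and CALM2, of calmodulin, 1372 and 947 CPM (1.45).

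Beside TAC1 and NTRK2, MGP had the lowest values in CCN3/SHOX2 stroma relative to TAC1/NTRK2 stroma by rank. MGP, the matrix Gla protein, had 19.8 CPM there and 86.4 CPM in TAC1/NTRK2 stroma at E105 (0.229, 0.155 to 0.347), and 11.3 and 282 CPM at E85. RGS4, a regulator of G protein signals, had 14.2 and 64.8 CPM at E105 (0.220), and ABCC9, a potassium channel subunit of pericytes, had 63.0 and 159 CPM (0.395). C1QTNF7 had 41.3 and 121 CPM (0.340), IGFBP5 53.9 and 140 CPM (0.384), and the guanylate cyclase subunit GUCY1A1 65.1 and 121 CPM (0.536). OGN had 592 and 1139 CPM (0.520), ID3 381 and 715 CPM (0.533), SPARC 1410 and 2192 CPM (0.643) and TCF21 1175 and 1379 CPM (0.852). All of these were lower at E85 too, on counts of 3 to 99 UMIs in the 22 cells.

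**Figure D4:**
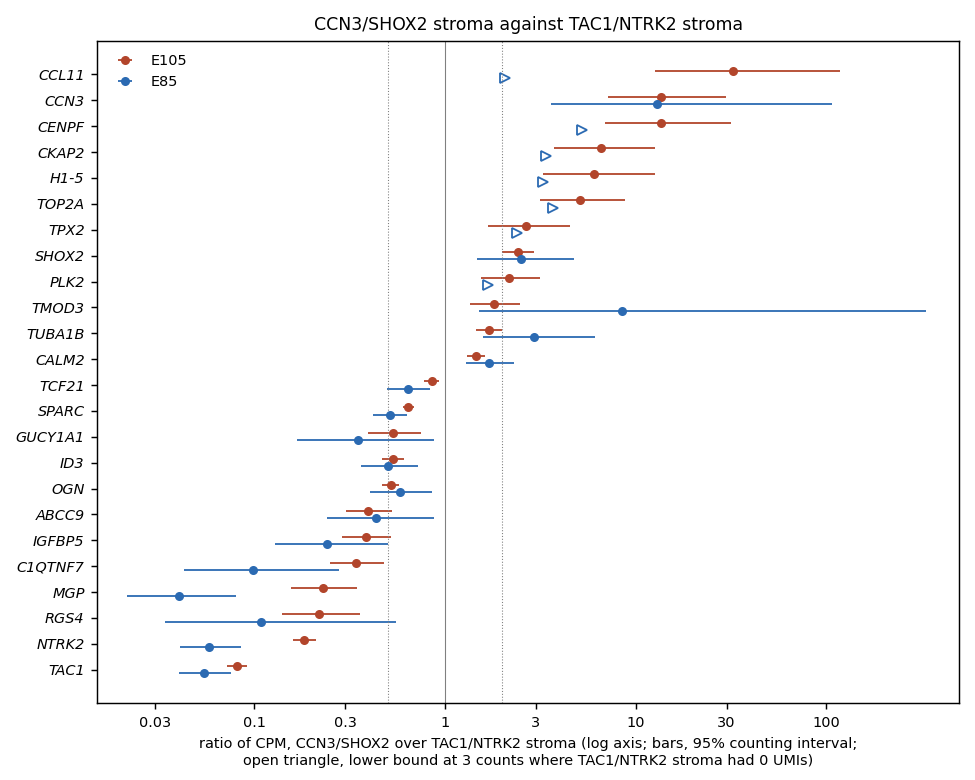
Ratio of CPM in CCN3/SHOX2 stroma over TAC1/NTRK2 stroma for 12 higher and 12 lower genes, on a log axis, with E105 in red above E85 in blue. Bars are 95% counting intervals. Open triangles are lower bounds at 3 counts, for counting error alone, where TAC1/NTRK2 stroma (22 cells at E85) had 0 UMIs. CCL11, CCN3 and CENPF lie far right, and TAC1 and NTRK2, which chose the sets, far left.

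The members were not uniform. Grouped by the rule gene with most UMIs in a cell, LUM led in 1301 cells at E105 (44.1%) and 1076 at E85 (51.7%), and SHOX2 in 671 (22.8%) and 333 (16.01%). CCN3 led in 234 cells at E105 (7.93%) and 288 at E85 (13.8%), and CCL11 in 242 (8.21%) and 45 (2.16%), with ties in 17.0% and 16.2%. The chemokine CCL11 was found in 38.6% of cells with CCN3 and 26.8% of cells without it at E105, and in 19.5% and 13.7% at E85. LUM went the other way, found in 78.5% of cells with CCN3 and 86.4% without it at E105, and in 85.0% and 92.7% at E85. These shares are of cells that the same genes selected, not thinned to 1 depth.

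The leading gene was cut from the same counts that selected the cells, so the differences between these groups are a description with no test. TOP2A had 23.8 CPM in CCN3-led cells and 274 CPM in LUM-led cells at E105, and 37.3 and 274 CPM at E85. CENPE, the kinetochore motor, had 5.09 and 86.5 CPM at E105 and 12.4 and 95.7 CPM at E85. Higher in CCN3-led than LUM-led cells were CALY, at 73.0 and 21.2 CPM at E105 and 80.8 and 23.0 CPM at E85, PLK2, at 345 and 156 CPM and then 204 and 91.2 CPM, and the basement membrane collagen COL15A1, at 216 and 93.3 CPM and then 204 and 119 CPM. The cadherin CDH11 had 248 and 119 CPM at E105 and 292 and 179 CPM at E85. DLK1 had 4275 and 2982 CPM at E105 and 3308 and 2562 CPM at E85. C1QA, a macrophage gene, was also higher, at 64.5 and 11.2 CPM at E105 and 31.1 and 11.5 CPM at E85, and its part in the difference was not tested.

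CCL11-led cells shared the low TOP2A, at 103 CPM against 274 CPM in LUM-led cells at E105. At E85 CCL11-led cells had 19.6 CPM, on only 2 UMIs in 45 cells, against 274 CPM. They had more CXCL10, an interferon-induced chemokine, at 1962 against 988 CPM at E105 and 1031 against 720 CPM at E85, and more ACTG2, enteric smooth muscle actin, at 332 against 180 CPM and 452 against 149 CPM. SHOX2-led cells had TOP2A at 323 against 274 CPM in LUM-led cells at E105 and 400 against 274 CPM at E85. Their PENK was lower, at 64.8 against 313 CPM at E105 and 6.52 against 20.1 CPM at E85. Their TAC1 was at 57.9 against 157 CPM at E105 and 44.3 against 77.6 CPM at E85.

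Grouping by UMIs of 1 rule gene uses the same counts again and is likewise a description, since a cell without CCN3 had to enter through another rule gene. At E105 the summed level of the 18 G2/M genes was 1489, 1494, 666 and 252 CPM in cells with 0, 1, 2 and at least 3 CCN3 UMIs. At E85 it was 1934, 926, 290 and 445 CPM in the same order. Thinned to 1000 UMIs, cells with at least 2 G2/M UMIs made up 6.38%, 6.53%, 3.95% and 1.42% of these groups at E105 and 9.22%, 6.41%, 2.65% and 2.59% at E85. Median depth was 2239 UMIs with no CCN3 UMI and 2581 UMIs with at least 3 at E105, and 2028 and 2241 UMIs at E85. For CCL11 the levels were 1501, 1161, 203 and 793 CPM at E105 and 1477, 924, 634 and 53.7 CPM at E85. The last of these rests on 8 G2/M UMIs in 61 cells. Thinned to 1000 UMIs, the shares with at least 2 G2/M UMIs were 6.18%, 5.25%, 3.02% and 4.14% at E105. At E85 they were 6.94%, 4.67%, 1.64% and 0% (upper limit 5.87%). For SHOX2, G2/M genes had 865 CPM with no SHOX2 UMI and 1878 CPM with at least 3 at E105, and 1093 and 1616 CPM at E85. Depth differed in the same direction, with medians of 2082 and 2551 UMIs at E105 and 1928 and 2274 UMIs at E85. Thinned to 1000 UMIs, cells with at least 2 G2/M UMIs made up 3.28% and 8.14% of these groups at E105 and 5.79% and 8.17% at E85. For DLK1, which was higher in cells with more CCN3 UMIs (2995, 3400, 3851 and 4093 CPM at E105), cells with 0 to 3, 4 to 7 and at least 8 DLK1 UMIs had 1480, 1044.5 and 1337 CPM of G2/M genes at E105 and 1314, 1311 and 1400 CPM at E85, with no steady order.

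**Figure D5:**
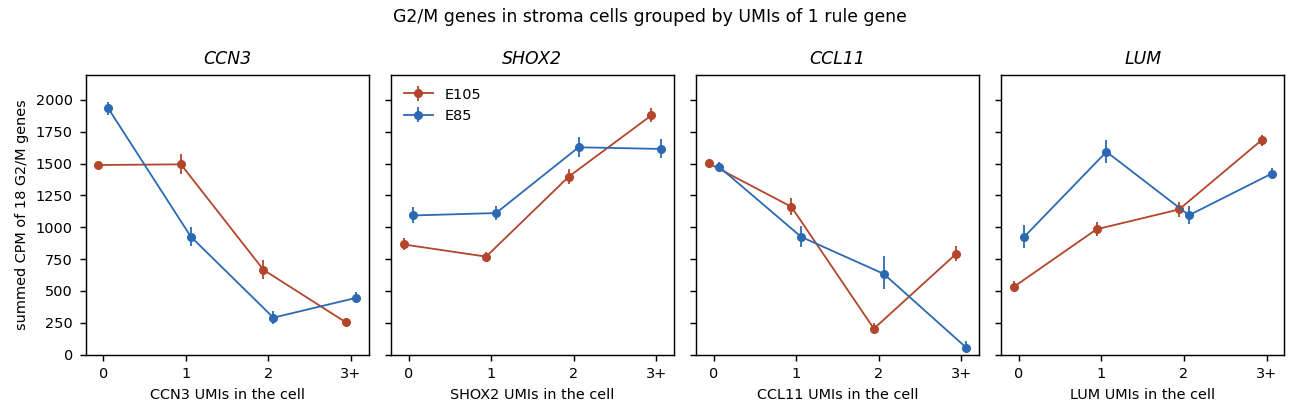
Summed CPM of 18 G2/M genes (vertical axis) in stroma without marker cells grouped by the UMIs of 1 rule gene in the cell, for CCN3, SHOX2, CCL11 and LUM. E105 is red and E85 blue, and bars are Poisson 95% intervals. The level is lower in cells with 2 or more CCN3 UMIs in both libraries and higher in cells with 2 or more SHOX2 UMIs.

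The same split seen from the cycle gave CCN3 at 132 CPM in cells with at least 2 G2/M UMIs and 370 CPM in cells with none at E105 (0.356, 0.295 to 0.426), and 197 and 629 CPM at E85 (0.313, 0.260 to 0.376). SHOX2 was also lower as CPM in the cells with G2/M UMIs, at 631 and 761 CPM at E105 (0.829, 0.760 to 0.903) and 576 and 742 CPM at E85 (0.776, 0.694 to 0.867), unlike the order by SHOX2 UMIs per cell. TCF21 had 686 and 1248 CPM at E105 and 508 and 913 CPM at E85. The cyclin CCND1 had 95.1 and 183 CPM at E105 and 85.2 and 212 CPM at E85, and CDKN1C had 83.6 and 165 CPM at E105 and 88.4 and 156 CPM at E85. DCN differed less, at 3532 and 5074 CPM at E105 and 3206 and 4578 CPM at E85, and POSTN was level or higher, at 454 and 367 CPM at E105 and 671 and 652 CPM at E85. Cells with G2/M UMIs were deeper, with medians of 3526.5 against 2214.5 UMIs at E105 and 3106 against 2014 UMIs at E85.

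PENK marked a small subset at E105. There 74 cells held at least 5 PENK UMIs, up to 87 in a cell, while E85 had 27 cells with any. Compared with cells of no PENK UMI, those 74 cells had MGP at 169 against 10.8 CPM, on 33 UMIs in the 74 cells. RGS5, a pericyte gene, was at 51.3 against 3.77 CPM, on 10 UMIs. RGS4 was at 71.8 against 10.1 CPM and COL14A1 at 71.8 against 7.98 CPM, each on 14 UMIs. How many of the 74 cells held these few UMIs was not counted. The 74 cells had ID4 at 113 against 21.4 CPM, NTRK2 at 379 against 117 CPM and TAC1 at 246 against 81.3 CPM. LUM was at 2030 against 1076 CPM, while CCL11 was at 56.4 against 377 CPM, DLK1 at 2353 against 3314 CPM and TOP2A at 5.13 against 242.5 CPM. LUM, CCL11, TAC1 and NTRK2 are genes of the member rule. A member needed more UMIs of the 4 rule genes than of TAC1 and NTRK2. Values of these genes, and the next split by TAC1, are thus a description. Cells with at least 2 TAC1 UMIs, 163 at E105 and 50 at E85, also had more PENK than cells with none, at 413 against 127 CPM at E105 and 50.2 against 11.8 CPM at E85.

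CXCL10 was unevenly held as well. It had 1033 CPM at E105 and 636 CPM at E85, and was found in 51.8% and 36.4% of cells, with up to 223 and 109 UMIs in a cell. Cells with at least 5 CXCL10 UMIs numbered 392 at E105 and 137 at E85. They were deeper than cells with none, with medians of 2757.5 against 2124 UMIs at E105 and 2421 against 2017 UMIs at E85. Their CXCL9, another interferon-induced chemokine, was at 279 against 13.4 CPM in cells with none at E105 and 83.4 against 10.5 CPM at E85, and the immunoproteasome subunit PSMB9 at 519 against 250 CPM and 778 against 214 CPM. TOP2A was at 289 against 151 CPM at E105 and 646 against 134 CPM at E85. Antigen-presenting cell genes moved with it, AIF1 at 114 against 3.42 CPM and HLA-DRA at 53.5 against 1.24 CPM at E105, and 67.3 against 10.9 CPM and 59.2 against 4.22 CPM at E85. At E105 AIF1 was found in 34 cells of the stroma and HLA-DRA in 20, and CLEC9A, of dendritic cells, in 11. Immune cells had CXCL10 at 758 CPM at E105 and 833 CPM at E85, and their part in the CXCL10 of the stroma was not tested.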

How the data were processed

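Droplet (10x Genomics) single-cell libraries of fetal goat testis were used, 1 per stage. The deposited values are raw UMI counts per gene and barcode, made with Cell Ranger. Its version is 3.1 per the submitters' processing notes, whereas the matrices name 6.0.0 in their own headers, per the file headers. Annotation and build were not given in the sources used here. Kept barcodes had at least 1000 UMIs and at most 20% mitochondrial UMIs. Each was put in the first class it met, in the order member, Sertoli, endothelium, germ, TAC1/NTRK2, immune and other. The members, gene lists and thresholds were chosen with earlier results of these data known.

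Counts were summed over the members of each library and given as CPM with exact Poisson 95% intervals. Shares have Clopper-Pearson intervals, and ratios have intervals from the exact binomial split of the 2 counts. UMIs of 1 library are not replicates, so the intervals cover counting error only and no test was run. Of 27271 features 16616 have a symbol. A gene with a symbol and at least 20 UMIs over both sums was called when its ratio, with 0.5 UMI added to each count, was at least 2 or at most 0.5. Shared or overlapping gene copies were not resolved.

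Genes were named by a rule. Candidates reached 50 CPM or more in at least 1 library, were not ribosomal, mitochondrial or haemoglobin genes, and no other class of at least 50 cells had over 10 times their level. Rank was by whichever 95% bound lay closer to 1, with 12 taken each way and up to 4 from each list. The same rule was applied after seeing the data to members without marker cells. Further list genes, CXCL10, the genes of cells grouped by leading gene, and the splits by UMIs of 1 gene or of G2/M genes were also chosen after values were seen. Scrublet, with an expected rate of 6%, called 158 barcodes at E105 and 195 at E85, which stayed in. It marked 31 and 24 members. Some genes that the rule or the lists hold are not reported here. Scripts were tested on simulated data. Tools were scanpy 1.11.5, numpy 2.4.6, scipy 1.17.1, pandas 2.3.3 and, for TMM factors alone, edgeR 4.0.16. Alternatives covered scaling, filters, depth, doublets and the member threshold.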

Additional observations from a re-analysis of the deposited data

Results flagged for a closer look

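The library labelled E125, which entered no comparison, held 741 barcodes that met the member rule, 10.1% of 7325 kept barcodes (9.43 to 10.8%). CCN3 stood at 315 CPM there, against 295 CPM at E105 and 373 CPM at E85 over all members. SHOX2 stood at 32.3 CPM, against 672 CPM at E105 and 517 CPM at E85 over all members. No marked cells were set aside in these sets. CCN3, SHOX2, CCL11 and LUM chose the barcodes, so their levels are a description. These values drew attention because barcodes met the rule in a library that the comparisons leave out. In the same barcodes DLK1 had 123 CPM, LUM 511 CPM, DCN 4149 CPM, COL1A1 1579 CPM and MGP 918 CPM.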

How the results depend on the processing

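No paired analysis was possible because each stage has 1 library and the labels give only replicate number 1. No replicate was left out. Fewer genes pass a stricter filter by construction, and the cause of the other shifts was not tested. With no filter beyond 1 UMI, all members had 1119 genes higher and 2300 lower at E105, and 2639 lower than TAC1/NTRK2 stroma. With at least 50 UMIs, 647 and 87 were lower in these comparisons. Without marker cells the 1001 lower genes became 145, and the 215 higher and 343 lower than TAC1/NTRK2 stroma became 61 and 197. Thinning to 1000 UMIs per cell gave 199 lower at E105, and 33 higher and 195 lower than TAC1/NTRK2 stroma. A member threshold of 3 UMIs gave 112 higher than TAC1/NTRK2 stroma, and means over cells gave 57. The share of members was 37.3% at E105 and 25.9% at E85 with at least 2000 UMIs per barcode, 37.5% and 31.1% with at least 3 rule UMIs, and 41.4% and 32.6% without marker cells.

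Without marker cells, an added choice, no filter gave 1051 higher and 1139 lower at E105 and 2209 lower than TAC1/NTRK2 stroma. At least 50 UMIs gave 305, 57 and 47. Median-of-ratios scaling gave 93 higher and 99 lower than TAC1/NTRK2 stroma, thinning 31 higher, and at least 3 rule UMIs 316 lower. The share was 35.7% and 22.8% with at least 2000 UMIs, 36.6% and 29.4% with at least 3 rule UMIs, and 42.7% at E105 with at most 10% mitochondrial UMIs.

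TOMM34 changed sign, to a log2 ratio of 0.15 without marker cells. Over all members 23 of 1223 values of named genes changed sign, in 10 genes including IGF2, NR2F2 and NOTCH3. Without marker cells 0 of 979 did, over 89 genes. TMM scaling shifted the E85 comparison with TAC1/NTRK2 stroma by −0.24 on the log2 scale. That comparison rests on 22 TAC1/NTRK2 cells at E85.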
